A study of Mus musculus with 10 samples.

Results

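The cytosolic ribosome of mouse cells is built from ribosomal RNA and a fixed set of ribosomal proteins, and their genes were followed in CUT&RUN profiles of the transcription factor IKZF2. Members were the autosomal protein-coding genes whose symbols begin with Rpl or Rps and a number, with Rplp0, Rplp1, Rplp2 and Rpsa, leaving out the Rps6k kinases and pseudogenes. This gave 85 of the 21887 genes of the RefSeq table for GRCm38.p6, whose coordinates are those of mm10, the build of the deposited regions. Of these, 51 belong by name to the large subunit and 34 to the small subunit. The name rule also takes in 12 genes that are not standard subunits. Of these, Rpl7l1, Rpl22l1, Rpl3l, Rpl36al, Rpl39l, Rpl10l, Rpl32l, Rpl37rt, Rps27l, Rps27rt and Rps23rg1 are named after a subunit gene, most being paralogs. The last is Rps19bp1, which encodes a protein that binds Rps19. The other 73 are the core subunits.

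The cells were RN2, a murine C57BL/6 leukaemia line that carries the MLL-AF9 fusion and NRASG12D. All had received a retrovirus for murine IKZF2 and RFP, were sorted and were then kept in culture for 2 weeks. The 6 samples used here were incubated with the anti-IKZF2 antibody and form 3 libraries with 2 technical replicates each, and the 4 samples with a control antibody were not analysed here. The antibody's own signal and the general accessibility of a promoter therefore cannot be told apart, and neither can overexpressed and endogenous IKZF2. The labels name no separate cultures behind the libraries, and p-values then measure only the spread between these samples, which may be technical.

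Ribosomal proteins are made in near equal amounts, so their many scattered genes have to be read at similar, high rates in growing cells. Their promoters are short, mostly lack a TATA box and start transcription inside a run of pyrimidines, which becomes the terminal oligopyrimidine tract that couples translation of these mRNAs to growth signals. IKZF2, also called Helios, is a zinc-finger factor of the Ikaros family, whose members recognise a TGGGAA core. In blood, loss of a single copy of some ribosomal protein genes causes Diamond-Blackfan anaemia, a failure of red cell production.

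Promoters of 9 members are printed 5′ to 3′ on the gene's strand, from RefSeq GRCm38.p6. They are printed because, around the annotated start, members' IKZF2 regions were most frequent just upstream of it. Each begins 200 bases before the listed start and ends 15 bases past the gene's outermost annotated base on that side. Capitals mark bases inside the CUT&RUN region. Rps9 (chr7:3703841-3703968, plus strand), Rps6 (chr4:86857353-86857567, minus strand) and Rps19 (chr7:24884392-24884606, plus strand) had the highest signals of the small subunit. Rpl5 (chr5:107900328-107900522, plus strand) and Rpl7l1 (chr17:46782642-46782856, minus strand) were among the highest of the large subunit. Rps24 (chr14:24490478-24490692, plus strand) and Rps3 (chr7:99483695-99483909, minus strand) hold the Ikaros family core inside a region that covers all the printed bases. Rplp0 (chr5:115559267-115559481, plus strand) and Rpsa (chr9:120127566-120127780, plus strand) had no region and are printed for contrast.
Rps9: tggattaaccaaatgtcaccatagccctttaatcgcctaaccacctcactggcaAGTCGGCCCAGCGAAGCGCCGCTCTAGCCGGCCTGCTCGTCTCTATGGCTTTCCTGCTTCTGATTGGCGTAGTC
Rps6: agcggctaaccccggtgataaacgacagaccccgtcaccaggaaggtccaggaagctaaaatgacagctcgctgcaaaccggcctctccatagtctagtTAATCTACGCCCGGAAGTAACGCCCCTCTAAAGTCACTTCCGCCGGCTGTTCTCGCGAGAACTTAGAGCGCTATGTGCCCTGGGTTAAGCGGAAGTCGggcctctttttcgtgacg
Rps19: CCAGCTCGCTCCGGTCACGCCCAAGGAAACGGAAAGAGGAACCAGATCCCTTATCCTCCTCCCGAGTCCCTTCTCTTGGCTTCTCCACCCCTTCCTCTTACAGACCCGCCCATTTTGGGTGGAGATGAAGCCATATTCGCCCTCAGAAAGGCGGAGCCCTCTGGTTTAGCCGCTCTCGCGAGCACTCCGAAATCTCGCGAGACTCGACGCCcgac
Rpl5: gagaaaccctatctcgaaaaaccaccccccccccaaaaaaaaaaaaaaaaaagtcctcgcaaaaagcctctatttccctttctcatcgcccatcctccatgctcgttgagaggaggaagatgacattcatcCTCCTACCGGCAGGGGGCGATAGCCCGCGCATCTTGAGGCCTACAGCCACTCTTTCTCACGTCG
Rpl7l1: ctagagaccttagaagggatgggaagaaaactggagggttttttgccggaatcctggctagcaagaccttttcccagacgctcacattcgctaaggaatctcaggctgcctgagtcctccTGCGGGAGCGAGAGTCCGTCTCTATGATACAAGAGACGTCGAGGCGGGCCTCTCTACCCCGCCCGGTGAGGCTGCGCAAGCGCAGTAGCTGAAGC
Rps24: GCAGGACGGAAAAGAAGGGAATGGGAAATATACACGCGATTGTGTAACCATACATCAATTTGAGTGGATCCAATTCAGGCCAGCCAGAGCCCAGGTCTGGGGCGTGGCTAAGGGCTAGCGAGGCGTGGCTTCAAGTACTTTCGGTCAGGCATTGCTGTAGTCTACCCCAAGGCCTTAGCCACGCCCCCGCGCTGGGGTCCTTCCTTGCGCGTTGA
Rps3: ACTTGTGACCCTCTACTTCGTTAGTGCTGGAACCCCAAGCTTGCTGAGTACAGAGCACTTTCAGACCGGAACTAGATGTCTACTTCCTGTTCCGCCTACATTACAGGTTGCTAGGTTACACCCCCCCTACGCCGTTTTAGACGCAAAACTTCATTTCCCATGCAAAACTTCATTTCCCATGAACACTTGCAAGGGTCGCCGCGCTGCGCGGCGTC
Rplp0: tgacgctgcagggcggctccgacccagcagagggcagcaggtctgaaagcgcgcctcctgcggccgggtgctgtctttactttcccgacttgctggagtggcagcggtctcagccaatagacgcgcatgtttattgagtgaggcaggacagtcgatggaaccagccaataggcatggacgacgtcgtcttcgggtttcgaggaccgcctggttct
Rpsa: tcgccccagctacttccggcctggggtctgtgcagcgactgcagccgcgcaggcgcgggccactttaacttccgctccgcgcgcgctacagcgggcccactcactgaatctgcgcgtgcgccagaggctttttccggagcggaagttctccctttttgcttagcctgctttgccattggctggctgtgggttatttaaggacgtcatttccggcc

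The deposited files hold raw read counts over 151133 regions common to all samples, with a median width of 109 bp. The samples of technical replicate 1 held 273896 to 326440 reads in regions and those of technical replicate 2 held 1296355 to 1755015, and the libraries summed to 1675237, 1570251 and 2081455 reads. Signal is given as CPM per kb, the region's count scaled by library size (CPM) and divided by its width in kb. A gene's signal is that of its highest region within 5 kb of either end of the gene, and each mean ± SD is taken across libraries (n = 3). A gene was counted in the top 10% when its mean signal reached 101.8 CPM per kb, the level that the top 10% of genes with a region reach.

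Regions of IKZF2 signal lay at the promoters of ribosomal protein genes about as often as not, and more often than at the promoters of protein-coding genes in general. RefSeq start sites were at hand for 65 members. A region overlapped the window from 250 bases before to 50 bases after a start in 34 of these 65 members (52.3%), where the background over 17492 genes was 26.9%. Both subunits contributed, with 20 of 39 large subunit genes (51.3%) and 14 of 26 small subunit genes (53.8%). The promoter region was also the highest region of the gene in 29 of the 34. In Rpl4, Rpl14, Rpl24, Rpl27 and Rps2 another region within 5 kb was higher. Lists of the same kind of gene had similar shares, namely 32 of 69 mitochondrial ribosomal protein genes (46.4%), 23 of 40 ribosome biogenesis genes (57.5%) and 13 of 30 genes for translation factors and related mRNAs (43.3%). These shares are descriptions, with no test.

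The regions sat just upstream of the start. Over the 77 listed starts of the 65 members, the bin from 100 to 0 bp before the start overlapped a region in 44.2% of starts, against 21.0% of 21263 starts of all genes. The next bin upstream had 36.4% against 16.3%, and the bin from 0 to 100 bp after the start had 31.2% against 15.3%. From 100 to 200 bp after the start the shares were 3.90% and 4.54%. In each bin from 700 to 1500 bp after the start the members' share was again above that of all genes, on 2 to 4 of 77 starts a bin, with 5.19% against 1.97% from 1000 to 1100 bp. Upstream it reached farther, with 13.0% against 4.04% in the bin from 500 to 400 bp before the start. The centre of the promoter region lay at a median of -67.8 bp from the start in members and -64.0 bp over all genes, where negative is upstream.

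**Figure D1:**
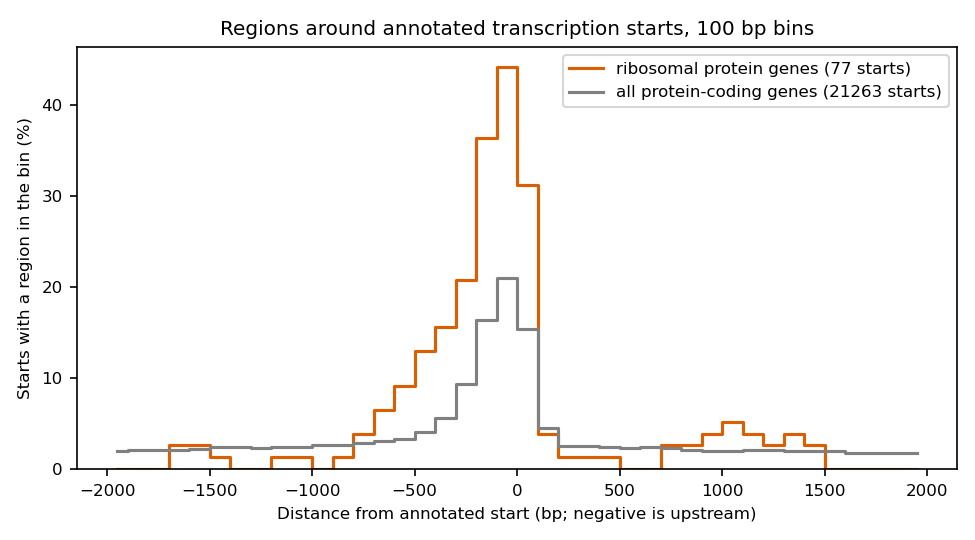
Share of annotated transcription starts with a CUT&RUN region in each 100 bp bin (y axis, percent) by distance from the start (x axis, bp, negative upstream), for 77 starts of ribosomal protein genes (orange) and 21263 starts of all protein-coding genes (grey). Both lines peak in the 100 bp before the start, at 44.2% and 21.0%, and drop to 3.90% and 4.54% in the bin from 100 to 200 bp downstream.

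The 3' end of the gene was marked less often than the start, though more often in members than over all genes. A region came within 150 bp of the first base of the gene in 29 of 65 members (44.6%, background 23.1%) and within 150 bp of the last base in 6 (9.23%, background 2.91%). Those 6 were Rpl22, Rps3, Rps18, Rps19, Rps21 and Rps27, or 1 of 39 large (2.56%) and 5 of 26 small subunit genes (19.2%). Rps3, Rps18 and Rps19 had a region at both ends. Members are short, with a median span of 3230 bp against 17169 bp for all genes.

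Member promoter regions were somewhat wider and deeper than others. Their median width was 177 bp against 154 bp, their median depth 75.5 reads over the 3 libraries against 62, and their median signal 77.4 against 71.5 CPM per kb. Regions of 200 bp or more covered 12 of the 34 promoters (35.3%), against 33.0% of the promoter regions of all genes. These 12 were Rps2, Rps3, Rps3a1, Rps19, Rps24, Rps26, Rpl10a, Rpl14, Rpl22l1, Rpl27, Rpl37 and Rpl37a. With only such wide regions kept, the promoter count was 12 of 65 members (18.5%) and the background 9.05%.

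Rps19, the gene most often mutated in Diamond-Blackfan anaemia, had the deepest promoter region, 562 bp at chr7:24884040-24884602 with 82, 136 and 150 reads in the libraries in order. Its signal was 87.1, 154 and 128 CPM per kb, a mean of 123 ± 33.8. The region covers nearly the whole printed Rps19 promoter and stops a few bases past the start. Rpl37, a zinc-binding protein of the large subunit, followed with 163 reads over 359 bp and 84.8 ± 11.2 CPM per kb. Rpl27 had 148 reads over 376 bp at its start and 74.9 ± 14.4 CPM per kb there. Rps24, another gene mutated in Diamond-Blackfan anaemia, had 141 reads over 337 bp and 78.6 ± 20.2 CPM per kb. Rps3, which lines the channel where mRNA enters the ribosome, had 123 reads over 343 bp and 68.0 ± 16.5 CPM per kb. Dividing by width puts these deep, broad regions below narrower ones with fewer reads.

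Across the whole 5 kb window, 72 of 85 members had a region (84.7%), where the background was 73.7%. This held 44 of 51 large subunit genes and 28 of 34 small subunit genes. Among the members without a region were Rpl10l, Rpl13, Rpl13a, Rpl32l, Rpl34, Rpl37rt, Rplp0, Rps13, Rps27rt and Rpsa. Rplp0 is the base of the ribosomal stalk that recruits elongation factors, and Rpsa is the small subunit protein also known as the laminin receptor. For the 72 with a region the median signal was 69.6 CPM per kb, with library medians of 75.1, 75.1 and 59.8. Over all 16133 genes with a region it was 58.8, with library medians of 60.8, 66.3 and 58.3. The members' median exceeded that of all genes by less in library 3 than in the others. Of the 72, 47 lay above the median of all genes, and the lowest and highest members had 40.4 and 163 CPM per kb.

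Large subunit genes had a median of 74.9 CPM per kb (80.0, 74.8 and 66.0 in libraries 1 to 3), above the median of all genes in each library. Small subunit genes had a median of 67.0 (69.0, 80.3 and 47.9), which fell below the median of all genes in library 3. The subunits' medians differed by less than the SD of the small subunit's median between libraries, 16.4 CPM per kb.

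**Figure D2:**
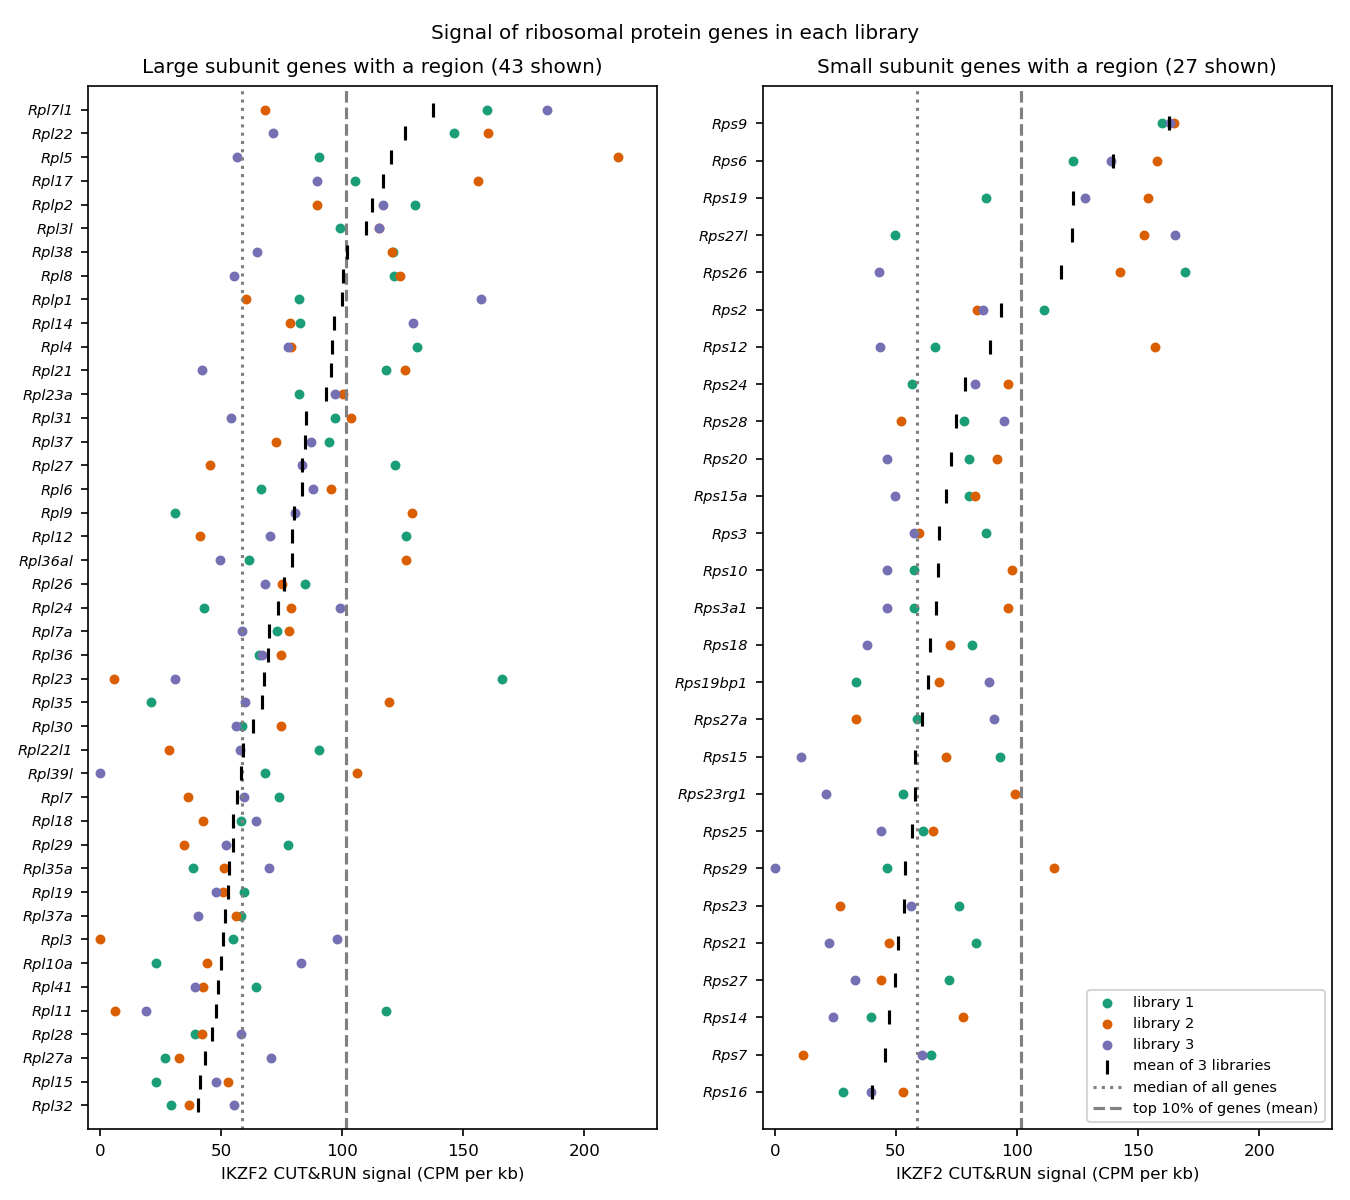
IKZF2 CUT&RUN signal (x axis, CPM per kb) of ribosomal protein genes with a region, in each library (coloured points) and as the mean of 3 libraries (black bars), for 43 of the 44 large and 27 of the 28 small subunit genes; the others are not shown. Dotted and dashed lines mark the median of all genes (58.8) and the top 10% level (101.8), and many genes spread widely between libraries, while the points of Rps9 nearly coincide.

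In the top 10% were 13 of 85 members (15.3%), where the background over all genes was 7.37%. They were 8 large subunit genes (15.7%) and 5 small subunit genes (14.7%), or 10 of the 73 core subunits and 3 of the 12 other members. The count was 15, 10 and 10 when each library was ranked alone. It was 6 of 85 (7.06%) with technical replicate 1 alone, close to the background, and 15 with technical replicate 2 alone. With each library left out in turn it was 11 to 17. Members in the top 10% of every library were 2 of 85 (2.35%), Rps9 and Rps6, where the background was 1.38%.

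In the small subunit, Rps9, a protein that binds ribosomal RNA early in assembly, had the highest and most even signal of all members. Its libraries gave 160, 165 and 163 CPM per kb from 30, 29 and 38 reads, a mean of 163 ± 2.5. The 3 summed libraries hardly differed, and all lay above the top 10% level. This evenness rests on few reads, and technical replicate 1 alone had 3, 4 and 10. The region, chr7:3703895-3704007, also falls within 5 kb of Tsen34, a gene for a tRNA splicing endonuclease subunit. With regions of 200 bp or wider only, Rps9 had 51.3 CPM per kb.

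Rps6, the small subunit protein phosphorylated by S6 kinase downstream of mTOR, came next. It had 123, 158 and 139 CPM per kb from 20, 24 and 28 reads, a mean of 140 ± 17.3, at chr4:86857371-86857468. Every library was above the top 10% level, and technical replicate 1 alone gave 186 CPM per kb. The region ends 4 bp short of the annotated start, upstream of the gene, as the capitals in the printed Rps6 promoter show.

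The other small subunit genes in the top 10% were less even. Rps27l, a paralog of Rps27 that p53 can induce, had 49.7, 153 and 165 CPM per kb, a mean of 122 ± 63.3, so library 1 stood below the others. With technical replicate 1 alone it had 48.7. Rps26, a subunit near the mRNA exit channel, had 169, 143 and 43.0, a mean of 118 ± 66.5, with library 3 below the others. Its region, chr10:128626723-128626924, is shared with the window of Ikzf4, another Ikaros family gene, and lies upstream of Rps26. Rps2, a core subunit at the mRNA entry channel, missed the top 10% with 111, 83.4 and 86.1, a mean of 93.6 ± 15.3. That region is nearest to Ndufb10, and the one at Rps2's own promoter had 72.8 ± 3.0.

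The lowest small subunit genes with a region were Rps16 and Rps7. Rps16, whose tail reaches the decoding centre, had 28.3, 52.9 and 39.9 CPM per kb, a mean of 40.4 ± 12.3. Rps7 had 64.5, 11.5 and 60.6, a mean of 45.5 ± 29.6, from a region 4888 bp from the gene's end. Neither had a region over its promoter window.

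Some other genes mutated in Diamond-Blackfan anaemia were picked out after their values were seen. They are not the full set of such genes among the members. Rps10 had 57.4, 98.0 and 46.2 CPM per kb, a mean of 67.2 ± 27.2, with a region over its promoter window. Rpl35a had 38.5, 51.4 and 69.7, a mean of 53.2 ± 15.7, and no promoter region. Rps14, the gene lost in a related human marrow disorder, had 39.8, 77.8 and 24.0, a mean of 47.2 ± 27.7. That region lies 4872 bp from an end of the gene. A further region covers an end of Rps14, with 43.5 ± 31.6 CPM per kb. The mean of Rps10 lies above the median of all genes and those of Rpl35a and Rps14 below it, all within 1 SD of it.

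In the large subunit, Rpl7l1, a paralog of Rpl7 that acts in ribosome assembly, had the highest mean. It had 160, 68.2 and 184 CPM per kb from 30, 12 and 43 reads, a mean of 138 ± 61.3, with library 2 below the others. The region, chr17:46782624-46782736, spans the start of the gene. Rpl22, which is lost or mutated in some T-cell leukaemias, had 146, 160 and 71.3, a mean of 126 ± 47.9. Its region, chr4:152325675-152325830, lies at a listed start 1239 bp from the outermost end of the gene, and within a 1 kb window Rpl22 had 56.0.

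Rpl5 and Rpl11 form, with ribosomal RNA, the particle that binds Mdm2 and stabilises p53 when ribosome assembly fails. Rpl5 had 90.3, 214 and 56.5 CPM per kb from 18, 40 and 14 reads, a mean of 120 ± 82.9. Library 2 stood far above the others. The region of these values, chr5:107900459-107900578, spans the start. Without library 2 another region in the window was the highest of Rpl5, with a mean of 74.1. Rpl11 had a region only 3604 bp from an end of the gene, with 118, 6.3 and 19.0 CPM per kb from 20, 1 and 4 reads, a mean of 47.8 ± 61.3. The level of Rpl11 came from library 1, and its promoter window held no region.

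The stalk proteins Rplp1 and Rplp2, acidic proteins that pair on Rplp0, both had a region. Rplp2 had 130, 89.8 and 117 CPM per kb, a mean of 112 ± 20.6, at chr7:141447153-141447309. That region is nearest to Pidd1, and the nearest-gene rule left Rplp2 with 41.1. Rplp1 had 82.3, 60.4 and 157, a mean of 100.04 ± 50.9, just under the top 10% level. Rpl8, a core large subunit protein, lay there too with 100.3 ± 39.0.

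Rpl17, which sits at the exit of the peptide tunnel, had 105, 156 and 89.5 CPM per kb, a mean of 117 ± 34.8. Rpl3l, the paralog of Rpl3 used in muscle, had 99.1, 115 and 115, a mean of 110 ± 9.3. That region lies 288 bp from the 3' end of Rpl3l and is nearest to Msrb1. Rpl38, known for its part in skeletal patterning, had 121, 120 and 64.9, a mean of 102 ± 32.2, at the edge of the top 10%. The lowest large subunit genes with a region were Rpl32 (29.5, 36.7 and 55.4, mean 40.5 ± 13.4) and Rpl15 (23.2, 53.1 and 48.0, mean 41.4 ± 15.99).

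Some members were even between libraries at moderate levels. Rpl36 (65.8, 74.9 and 67.1, mean 69.3 ± 4.9), Rpl26 (84.8, 75.4 and 68.2, mean 76.1 ± 8.3) and Rpl23a (82.2, 100.6 and 97.3, mean 93.3 ± 9.8) were close in all 3 libraries. Rpl11 and Rpl23 were the least even relative to their means, Rpl23 with 166, 5.9 and 31.1 CPM per kb from 30, 1 and 7 reads. The median coefficient of variation was 38.5% for members and 42.7% for all genes with a region.

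Many members share their region with a neighbour. The highest region lay within 5 kb of another gene as well in 40 of 72 members (55.6%), against 37.0% of all genes with a region. The gene taken as nearest to that region was another gene in 16 members, with no such count over all genes at hand. Ties in distance are included, as at Rpl7a, Rpl12 and Rpl37, whose region covers an end of the member itself. When each region went to its nearest gene only, 66 of the 72 members and 14878 of the 16133 genes kept a region. Members had a median of 2 regions in the window against 1 for all genes, a median best region width of 139.5 bp against 113 bp, and a median of 56 reads in it against 38. Members thus differed from all genes in width, depth and gene crowding as well as in signal. The part of these differences in the signal was not tested.

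The other genes of ribosome production and translation were read from lists of related genes. Among 78 mitochondrial ribosomal protein genes 9 were in the top 10% (11.5%), with a median signal of 68.4 CPM per kb over those with a region. Among 49 genes of ribosome biogenesis and RNA polymerase I the count was 7 (14.3%), with a median of 69.0. Among 38 genes for translation factors and other terminal oligopyrimidine mRNAs it was 3 (7.89%), with a median of 59.2, near that of all genes. The cytosolic ribosomal protein genes (15.3%, median 69.6) were thus close to the mitochondrial and biogenesis lists in median.

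**Figure D3:**
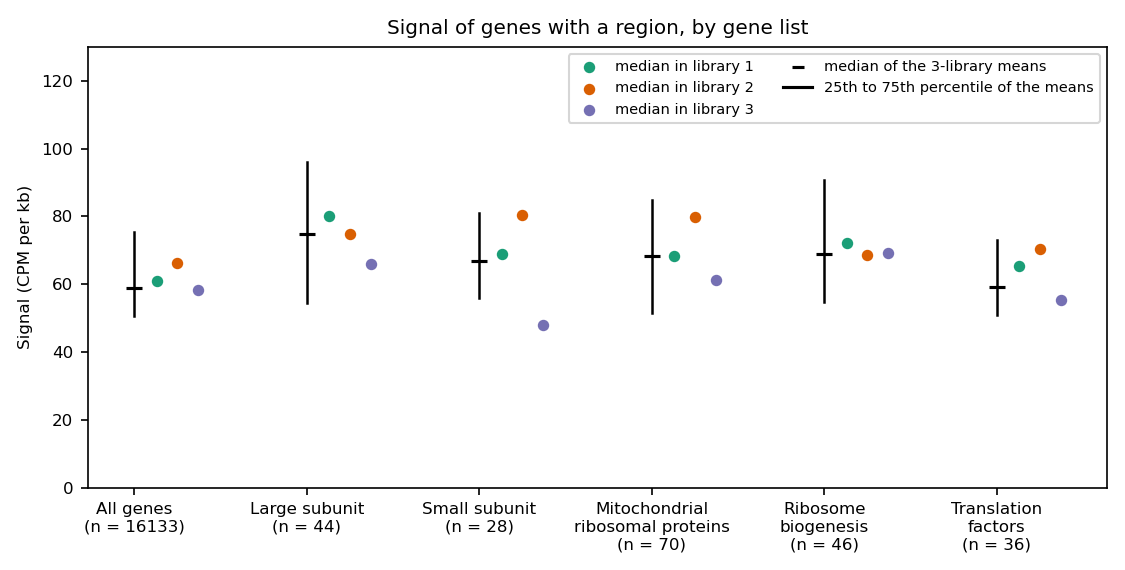
Median signal (y axis, CPM per kb) of genes with a region, for all genes and for 5 gene lists. Black ticks and lines give the median and the 25th to 75th percentile of the 3-library means, and coloured points the median in each library; the small subunit falls to 47.9 in library 3.

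Polr1e, a subunit of RNA polymerase I, which makes the ribosomal RNA precursor, had 296, 311 and 167 CPM per kb, a mean of 258 ± 79.1. Without the top 0.1% of regions it had 49.8. Nol6, a part of the small subunit processome, had 173, 204 and 103, a mean of 160 ± 52.0. Mdn1, an ATPase that removes assembly factors from the nascent large subunit, had 132, 191 and 119, a mean of 147 ± 38.1. Eif4a1, the RNA helicase of translation initiation, had 197, 195 and 107, a mean of 166 ± 51.3. That region is shared with Cd68 and Mpdu1, and by nearest gene Eif4a1 had 59.0. Fau, which encodes a small subunit protein fused to a ubiquitin-like protein, had 118, 95.3 and 106, a mean of 107 ± 11.3. That region lies 1563 bp from an end of Fau, is nearest to Znhit2 and is shared with Mrpl49 and Tm7sf2, and by nearest gene or within 1 kb Fau had no region. Eif4e, the cap-binding factor, had 125, 121 and 73.2, a mean of 107 ± 28.9, and 42.4 with technical replicate 1 alone.

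Motifs were searched in the 300-base windows of the promoter table, on both strands and with overlaps allowed. The Ikaros family core TGGGAA was in 14 of 77 member windows (18.2%), against 24.5% of all 21263 windows. It was in 8 of 37 member windows with a region (21.6%) and 6 of 40 without (15%), and over all genes in 23.3% of windows with a region and 24.9% of windows without. Members' windows therefore did not hold the core more often than windows in general. In the printed sequences it begins at position -179 from the Rps24 start on the sense strand and at positions -46 and -27 from the Rps3 start on the antisense strand, all inside the region. In Rpl7l1 it begins at positions -181 and -130, outside the region.

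Other promoter elements differed more. The ETS motif CCGGAAG was in 26 of 77 member windows (33.8%), against 11.6% of all windows. Members had it with a region (35.1%) about as often as without (32.5%), whereas over all genes it was in 22.8% of windows with a region and 7.95% without. The YY1 motif CCATCTT was in 12 member windows (15.6% against 6.24%), 3 of them among the 37 with a region and 9 among the 40 without. Over all genes it was in 8.38% of windows with a region and 5.55% without. A run of 8 or more pyrimidines within 10 bases of the start was in 23 member windows (29.9% against 7.49%). It was in 27.0% of member windows with a region and 32.5% without, and over all genes in 6.83% and 7.70%. The Rps6 promoter carries its ETS motif from position -91, inside the region, and the Rpsa promoter carries it from position -188 on the antisense strand with no region.

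The Sp1 motif GGGCGG was in 57.1% of member windows against 46.2% of all, the E-box CACGTG in 10.4% against 7.84%, the NF-Y motif CCAAT in 29.9% against 38.2% and the TATA box TATAAA in 7.79% against 12.6%. Median GC content was 58.7% in member windows and 56.3% in all windows. Windows with a region were richer in GC than those without, both in members (59.3% and 57.8%) and over all genes (61.0% and 54.3%).

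**Figure D4:**
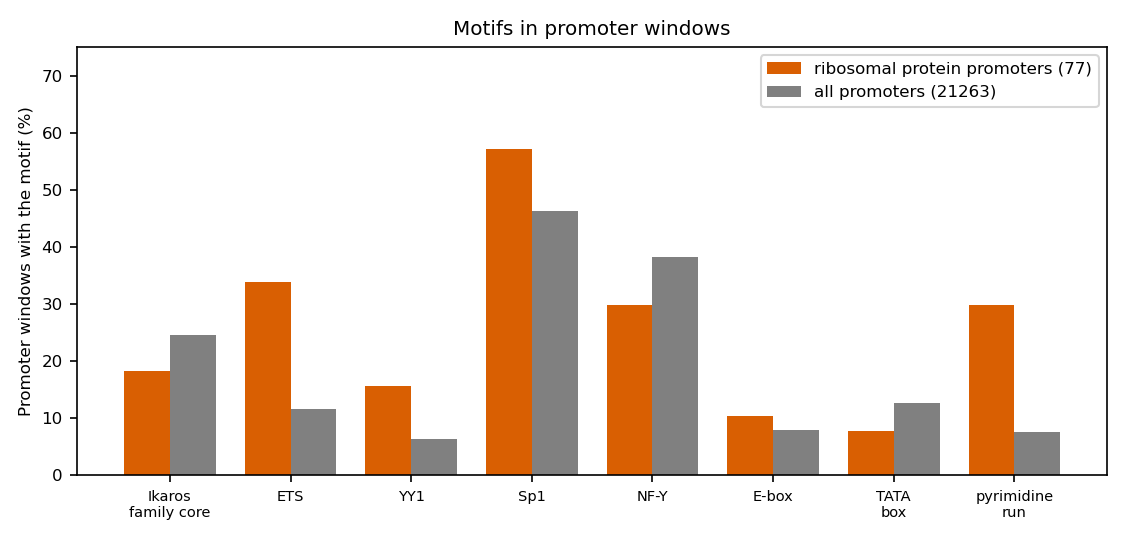
Share of promoter windows (y axis, percent) that hold each motif, for 77 windows of ribosomal protein genes (orange bars) and 21263 windows of all protein-coding genes (grey bars). The ETS motif (33.8% against 11.6%) and the pyrimidine run (29.9% against 7.49%) differ most, and the Ikaros family core is less frequent in member windows (18.2% against 24.5%).

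Technical replicates and libraries were compared by edgeR's quasi-likelihood test over 27452 regions with enough reads, of which 68 lie in members' windows. Between technical replicate 2 and technical replicate 1, 0 of the 68 were called at a Benjamini-Hochberg adjusted p under 0.05, where the background was 0.259% (71 regions, 38 of them higher in technical replicate 2). At an unadjusted p under 0.05 there were 10 (14.7%), all higher in technical replicate 2, against 1884 of all tested regions (6.86%), of which 1776 were higher. DESeq2 gave 0 calls at member regions and 2 at an unadjusted p under 0.05, against 1389 over all regions. The members' median log2 difference was 0.82 against 0.41 over all tested regions. Scaled to the total reads in regions these medians were 0.45 and 0.05, 2 member regions (2.94%) had an unadjusted p under 0.05 against 3.82% of all regions, and 9 of the 55 calls over all regions were higher in technical replicate 2.

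The lowest p among member regions was at Rpl23a, a protein at the tunnel exit, with 0, 0 and 9 reads in the shallower technical replicate and 34, 39 and 41 in the deeper. Its log2 difference was 2.33 ± 0.70 (SE, edgeR adjusted p = 0.155). Rplp2 had 0, 0 and 6 reads against 34, 22 and 32 (log2 difference 2.44 ± 0.83, edgeR adjusted p = 0.268). Rps19 had 14, 20 and 19 against 68, 116 and 131 (0.89 ± 0.33, edgeR adjusted p = 0.377). Rps9 had 164 CPM per kb in technical replicate 1, from 3, 4 and 10 reads, and 163 in technical replicate 2. Its log2 difference under TMM was 0.66 ± 0.64 (SE, edgeR adjusted p = 0.99). None of these differences passed the test after adjustment.

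**Figure D5:**
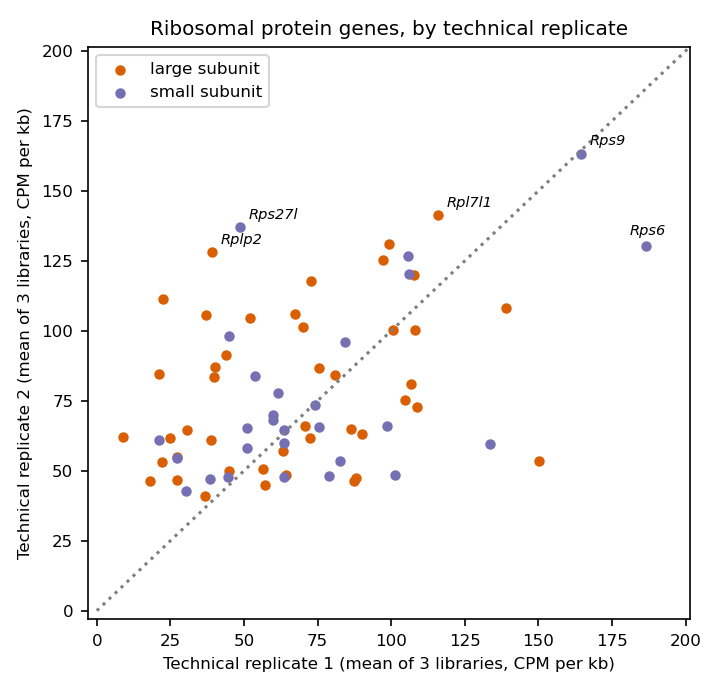
Signal of each ribosomal protein gene with a region in technical replicate 1 (x axis) and technical replicate 2 (y axis), as means of 3 libraries in CPM per kb. The dotted line marks equal signal. Rps9 lies on it (164 and 163), Rplp2 (39.3 and 128) and Rps27l (48.7 and 137) lie above it, and Rps6 (186 and 130.5) below. Signal is scaled to each sample's reads in regions. With TMM, edgeR gave log2 differences of 0.66 (Rps9) and 0.22 (Rps6), both higher in technical replicate 2.

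Between the 3 libraries, 0 of the 68 member regions were called by edgeR, where the background was 0.0146% (4 regions). At an unadjusted p under 0.05 there were 2, at Rps26 and Rpl23, both with an edgeR adjusted p of 1.0, against 1193 of the 27452 regions. DESeq2 gave 0 calls and 2 regions at an unadjusted p under 0.05, against 1563 over all regions. The spread in this test is that between technical replicates of the same library. The differences of Rpl5 and Rpl7l1 between libraries did not pass the test at this depth (edgeR adjusted p of 1.0 for both regions at the start).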

How the data were processed

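The authors deposited raw read counts per region for the 6 anti-IKZF2 samples, over a region set common to all, in mm10. The submitters' processing notes list Bowtie2 2.3.3.1 and MACS2. How reads from near-identical copies were placed is not given in the sources used here, nor is it known if starts are 0-based or 1-based. Between 58.0 and 87.4% of counts of 10 or more were even, as when both mates are counted, so counting error is understated.

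Technical replicates were summed per library and scaled to CPM per kb (Python 3.11.15, numpy 2.4.6, pandas 2.3.3, matplotlib 3.10.9). Region counts went into edgeR 4.0.16 under R 4.3.3 (filterByExpr, TMM, quasi-likelihood, library as a block between technical replicates, technical replicate as a term between libraries), with DESeq2 1.42.0 as an alternative, after a test on simulated data. The pairing behind the block comes from the labels, which give a pair of technical replicates for each CUT&RUN.

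The members and lists were chosen with earlier results of these data known. Named by rule were the 6 highest and 2 lowest members of each subunit, members in the top 10% of every library, the first 3 of each pathway list, and Rpl5, Rpl11, Rpl22, Rplp0, Rplp1, Rplp2, Rps6, Rps19 and Rpsa. Some members, also among those named by the rule, are counted but not reported by name here. Other genes were singled out after their values were seen. Promoter windows were added after seeing the data. The promoter table held 65 of the 85 members, and the other 20 were left out of promoter counts and motif searches. Alternatives covered the window, gene assignment, width, technical replicate, scaling, read minimum, strongest regions and each library left out.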

Additional observations from a re-analysis of the deposited data

How the results depend on the processing

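A promoter region was found in 33 to 34 of 65 members when regions needed 5 reads in library 1, 2 or 3 taken singly. Without the top 0.1% of regions the count stayed at 34 (background 26.6%). A minimum of 10 reads left both the members' count (34) and the background (26.9%) unchanged, so it is no check of them. With regions of 200 bp or wider only, 12 of 65 members had a promoter region (18.5%, background 9.05%). In that setting 25 of 85 members had any region, against 4527 of 21887 genes. In the top 10% were 4 members (4.71%, 2 large and 2 small), where the background was 2.07%. The large subunit median was 58.2 CPM per kb, against 54.1 over all genes. Fewer regions remain by construction. With technical replicate 1 alone the top 10% held 6 members (7.06%, 3 large and 3 small), against 7.37% of all genes. Within a 1 kb window it held 9 members (10.6%), 5 of them large subunit genes, against 4.24% of all genes. Leaving out each library in turn gave 11 to 17 members in the top 10%, where the background was 7.37 to 7.38%. These were 7 to 11 of the large and 4 to 6 of the small subunit. The medians were then 69.8 to 77.3 (members), 74.9 to 80.0 (large) and 64.5 to 76.9 (small), against 62.5 to 64.9 over all genes. The cause of these shifts was not tested. Other settings kept the counts within 1.5 times. Of 239 alternative values of named genes, 226 moved by less than 1 SD between libraries, 1 moved higher and 12 lower. That SD is large for uneven genes, such as Rpl5 (82.9 CPM per kb), so a large shift can stay within it. The 239 also include settings that could hardly move a value, such as the minimum of 10 reads and TMM (library factors 0.990 to 1.007). Over all regions, calls between technical replicates numbered 46 without a filter on low counts, 0 to 18 with a library left out, and 50 without the replicate block, and calls between libraries 0 to 4 with a library left out, where fewer samples and regions are tested. Calls at member regions were 0 in every setting run, the replicate block included. Most member regions hold few reads, which limits the comparison of single genes.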

Other observations

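Ribosomal protein genes have many pseudogenes, most of them intronless copies of the mRNA that lack the parent promoter. Of 281 autosomal Rpl and Rps pseudogenes in the table, 156 had a region within 5 kb (55.5%), against 84.7% of members. Their median signal was 53.4 CPM per kb, and 4 were in the top 10% (1.42%). A region overlapped the span of 17 pseudogenes (6.05%), whose median length was 539 bp. Reads from sequence that a pseudogene shares with its parent could be placed at either copy, and their part in these values was not tested.

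The X-linked ribosomal protein genes fall outside the autosomal rule. Rpl39 had 47.3, 101 and 71.4 CPM per kb in libraries 1 to 3, a mean of 73.2 ± 26.8. Rpl36a had 53.4, 35.6 and 64.4, a mean of 51.1 ± 14.5. Both regions lay over the promoter window, while Rpl10 and Rps4x had no region.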
